A study of Mus musculus with 1 sample.

Results

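The genes described here are 10 members of the unfolded protein response and the integrated stress response, read in mixed glia of the mouse ventral midbrain (VM). They were taken by symbol from the table of 1 control RNA-seq library as 3 stress sensors (Ern1, Eif2ak3 and Atf6), 3 transcription factors (Atf4, Xbp1 and Ddit3) and 4 target genes (Herpud1, Asns, Chac1 and Trib3). Each symbol had 1 row, so 10 of the 23282 rows in the table belong to these genes. The study asked how glia change when the serum- and glucocorticoid-regulated kinase SGK1 is inhibited, and the library analysed here is labelled as the control, which the study describes as vehicle-treated with DMSO. It came from brain tissue of outbred ICR (CD-1) pups labelled postnatal day 5, whose glia were expanded in serum-containing medium, detached with trypsin and replated on poly-D-lysine. The labels mention toxins in the treatment of the cultures but do not state whether this control received any. How many pups were pooled is not given in the sources used here. Since the data are 1 library without a replicate, conditions could not be compared, and the values are given without an error or a test.

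The unfolded protein response is set off when misfolded proteins collect in the endoplasmic reticulum (ER). Its sensors sit in the ER membrane. IRE1α (Ern1) removes a short intron from Xbp1 mRNA, ATF6 is cut in the Golgi to release a transcription factor, and PERK (Eif2ak3) phosphorylates the translation initiation factor eIF2α. The last step is shared with the integrated stress response, in which other kinases phosphorylate eIF2α under amino acid shortage, viral RNA or heme loss. General translation then falls while ATF4 is made from its mRNA, and ATF4 in turn drives amino acid and redox genes and the factor CHOP (Ddit3). Astrocytes and microglia secrete large amounts of protein and use these pathways to match folding capacity to load.

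The step that separates inactive from active XBP1 can be read in the sequence, which is shown because a count per gene cannot see it. In transcript Xbp1-201 of the GENCODE M21 annotation, which encodes 267 codons, a search was made for 26-base pieces of the coding sequence bounded on both sides by the cleavage pattern of IRE1, a C, any base and a G on each side of the cut. There were 2 such pieces, and removal of the piece in exon 4 of 5 lengthened the open reading frame to 371 codons, while removal of the other, in exon 1, shortened it to 73. The exon 4 piece lies at chr11:5524279-5524304 on the plus strand in GRCm38. It is printed in capitals with 20 bases on either side.
Xbp1: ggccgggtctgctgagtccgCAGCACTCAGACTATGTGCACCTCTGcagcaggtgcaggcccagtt

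Reads from mRNA with and without these 26 bases both count towards Xbp1, so its value sums the 2 forms in unknown proportion.

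The promoter stretches of 3 target genes are shown next, because they carry short elements known from stress-induced genes. Each is the 200 bases ahead of the gene's start in RefSeq (GRCm38.p6), read on the gene's own strand. In capitals are matches to the 8-letter core TGATGNAA of the C/EBP-ATF response element (CARE), which ATF4 can bind, and to the ER stress response element II (ERSE-II), ATTGGNCCACG, both searched on either strand. Herpud1 is at chr8:94386229-94386428 on the plus strand, Chac1 at chr2:119351042-119351241 on the plus strand and Asns at chr6:7693210-7693409 on the minus strand.
Herpud1: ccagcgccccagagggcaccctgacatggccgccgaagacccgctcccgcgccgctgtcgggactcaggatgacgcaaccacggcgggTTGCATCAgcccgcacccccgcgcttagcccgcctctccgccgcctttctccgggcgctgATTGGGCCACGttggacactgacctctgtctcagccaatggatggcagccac
Chac1: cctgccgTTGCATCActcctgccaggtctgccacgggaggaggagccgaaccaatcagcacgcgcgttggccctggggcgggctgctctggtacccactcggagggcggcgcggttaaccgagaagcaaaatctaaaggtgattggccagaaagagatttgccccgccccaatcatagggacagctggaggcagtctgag
Asns: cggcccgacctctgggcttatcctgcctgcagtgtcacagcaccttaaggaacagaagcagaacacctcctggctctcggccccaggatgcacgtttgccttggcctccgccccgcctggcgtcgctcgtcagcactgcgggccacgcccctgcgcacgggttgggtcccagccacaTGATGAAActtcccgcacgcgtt

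The 10 genes differed widely in their deposited values. These values, which the authors called normalised read counts, ran from 73 for Trib3 to 7346 for Atf4, with a median of 895.5. All 10 reached 10, the minimum for calling a gene detected, as did 67.2% of all rows. The value of 7 of the 10 exceeded the median of detected genes, 469, against 33.6% of all rows. Undetected rows are part of that share, whereas the median splits the detected rows evenly. The 3 members below the median were Ern1, Chac1 and Trib3. Together the 10 genes held 14570 of a sum of 27569507, or 0.0528%, and Atf4 made up 50.4% of that share.

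**Figure D1:**
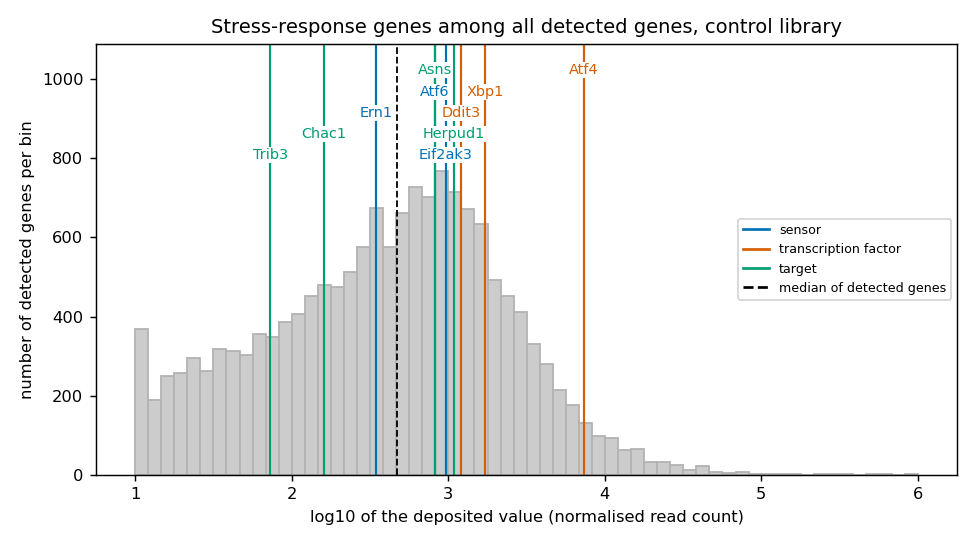
Histogram of the log10 deposited value of the detected genes in the control library, with a line for each of the 10 stress-response genes (blue, sensors; orange, transcription factors; green, targets) and a dashed line at the median of 469. Atf4 at 7346 stands to the right of the other 9 genes, Trib3 at 73 and Chac1 at 160 to their left, and the lines of Atf6 (822) and Asns (823) coincide.

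A long transcript collects more reads than a short one, so ratios between genes are given only on the value per kb of exon, with the exons of all annotated transcripts of a gene merged. On this scale the median of detected genes was 102.4. Of the 10 genes, 6 lay above it, against 33.8% of the rows with a known length. That share counts undetected rows too, whereas all 10 genes were detected and the median splits detected genes evenly. Atf4 and Trib3, the ends of the range, differed by 90.7-fold per kb. From highest to lowest the order was Atf4, Ddit3, Xbp1, Herpud1, Asns, Eif2ak3, Chac1, Atf6, Ern1 and Trib3. The 3 transcription factors thus came first, and the targets were spread from the fourth place to the last. Without replicates, it is not known which neighbours in this order differ by more than the variation between cultures.

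Among the sensors, Eif2ak3 (PERK) had the highest level. The gene lies on chromosome 6 from 70844515 to 70905245 in GRCm38, the build of all positions given here. Its deposited value was 968, or 161 per kb, above 60.2% of detected genes. Atf6 (chromosome 1, 170704674 to 170867771) had a value of 822 and a level of 89.0 per kb, just under the median of detected genes. Ern1 (chromosome 11, 106394650 to 106487852) was the lowest sensor on both scales, with a value of 348 and 42.6 per kb, above 31.6% of detected genes. Per kb, Eif2ak3 was 1.80 times Atf6 and 3.77 times Ern1. All 3 are large membrane proteins with long mRNAs, and their merged exons measured 6026 bases for Eif2ak3, 9231 for Atf6 and 8173 for Ern1.

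The order of the sensors rests on the length used. With the longest protein-coding transcript as the length, Eif2ak3 was 1.89 times Atf6 and 4.28 times Ern1. With the shortest one, these ratios were 9.21 and 1.96, Ern1 moved above Atf6 (532 against 113 per kb), and Ern1 was then also above the median of detected genes. That length comes from fragments of 654 bases for Ern1 and 927 bases for Eif2ak3, whereas Atf6 has 1 coding transcript length, 7246 bases.

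**Figure D2:**
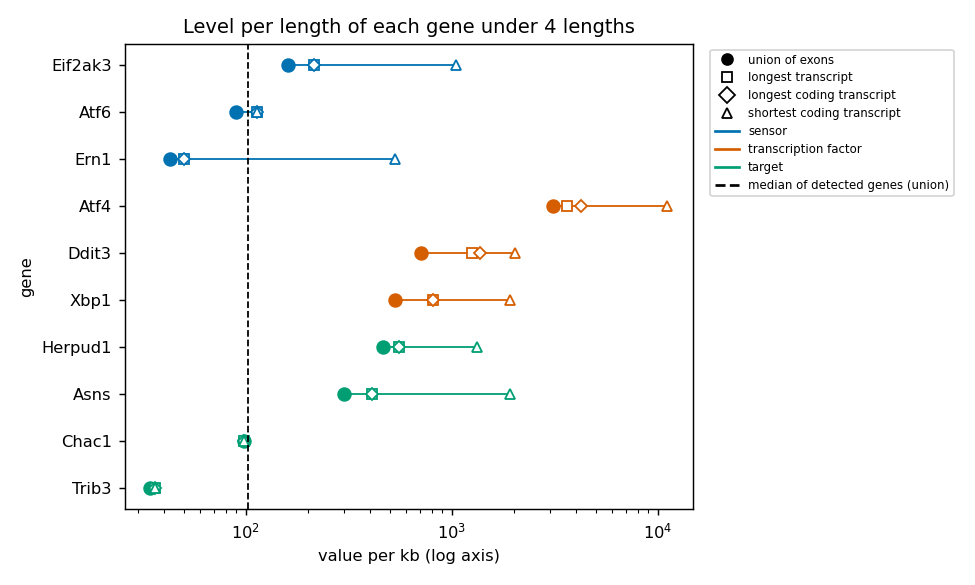
Value per kb on a log axis for each of the 10 genes, grouped as sensors (blue), transcription factors (orange) and targets (green), with the length taken as merged exons (filled circle), longest transcript (square), longest coding transcript (diamond) or shortest coding transcript (triangle). The dashed line marks the median of detected genes, 102.4 per kb of merged exons, and Atf4 lies to the right of all other genes whichever length is used.

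The transcription factors were the most abundant class. Atf4, the translationally controlled activator of the integrated stress response, (chromosome 15, 80255184 to 80257541) had a value of 7346, higher than 96.5% of detected genes. This corresponds to 266.5 for every 1000000 of the sum. Per kb it reached 3115, or 30.4 times the median of detected genes. Xbp1, the substrate of IRE1 (chromosome 11, 5520659 to 5525893), had a value of 1729 and a level of 532 per kb. Ddit3, which encodes the pro-apoptotic factor CHOP (chromosome 10, 127290774 to 127296288), had a lower value, 1214, but a shorter mRNA, and its level of 709 per kb was 1.33 times that of Xbp1. Atf4 was 4.40 times Ddit3 and 5.85 times Xbp1 per kb, and these ratios were 2.90 and 4.48 with the longest transcript as the length. Each of the 3 factors exceeded each of the 3 sensors per kb. The Atf4 level was 19.4 times that of Eif2ak3, and the Xbp1 level was 12.5 times that of Ern1, the kinase that splices its mRNA. With the shortest coding transcripts these ratios were 10.7 and 3.62.

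An mRNA level does not give the amount of ATF4 protein, because the leader of its mRNA holds upstream start codons that keep translation of the main frame low in unstressed cells. In the principal Atf4 transcript, 594 bases precede the coding sequence, and they held 3 upstream start codons. The frame of 1 of them overlapped the start of the coding sequence out of frame. Ddit3 had 2 upstream start codons in 186 bases, and neither frame overlapped the coding sequence out of frame. Eif2ak3 had 3 in 211 bases, 2 of them with an overlapping frame, and Xbp1 and Asns had 1 each. Atf6, Ern1, Herpud1, Chac1 and Trib3 had none. Thus 5 of the 10 genes had an upstream start codon and 2 an overlapping frame. Among 21499 coding genes the shares were 52.0% and 17.0%, so both features were about as common here as elsewhere. Atf4 and Eif2ak3 were the 2 genes with the overlapping arrangement.

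The 4 targets covered most of the range. Herpud1, an ER membrane protein of the degradation machinery (chromosome 8, 94386438 to 94395377), had a value of 1087 and a level of 466 per kb, above 81.4% of detected genes. Asns, the asparagine synthetase (chromosome 6, 7675169 to 7693254), had a value of 823 and 301 per kb. Chac1, which breaks down glutathione (chromosome 2, 119351229 to 119354381), had a value of 160. Its level of 97.7 per kb was close to the median of detected genes. Trib3, a pseudokinase that restrains ATF4 and CHOP (chromosome 2, 152337422 to 152344032), was the lowest of the 10, with a value of 73 and a level of 34.4 per kb, above 27.9% of detected genes. Herpud1 exceeded Trib3 by 13.6-fold per kb and Asns exceeded Chac1 by 3.08-fold, or by 36.7-fold and 19.5-fold with the shortest coding transcripts. Set against the factors, Ddit3 was 7.25 times Chac1 and 20.6 times Trib3 per kb of merged exons. With the longest coding transcript as the length, these ratios rose to 14.0 and 37.9, and with the shortest to 20.7 and 56.2.

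Reads shared with other genes could affect 2 of the 10. The exons of Ddit3 overlap those of Mars, the methionyl-tRNA synthetase gene, by 68 bases on the opposite strand, and Mars had a value of 3117. Exons of Eif2ak3 overlap the provisional annotated gene Gm43292 by 485 bases on the opposite strand. The strand setting of the counting is not given in the sources used here, so reads in these stretches cannot be assigned with certainty. The principal transcript of each gene was divided into all 50-base words, which were searched on both strands of the other genes' transcripts. Of the Eif2ak3 words 7.64% were found, all in Gm43292, and of the Ddit3 words 2.26%, all in Mars. These are the overlapping genes already named, so this is no separate source of shared reads. For the other 8 genes, Atf4 included, no word was shared.

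The wider pathway was described with 10 lists holding 107 genes, 10 of them the genes above. Of the 107, 106 were detected, against 67.2% of all rows, and 80 (74.8%) exceeded the median of detected genes per kb, against 33.8% of all rows with a known length. The last share is the one to set beside each count of list genes above the median below. It includes undetected rows, whereas the median splits the detected genes evenly. Many of these genes are used by unstressed cells as well, so the shares are no measure of stress in this culture. The lists were also chosen with earlier results of these data known, so the shares cannot show an excess over other genes. The median of 9 lists lay above that of detected genes, and the list of stress-induced regulators and secreted factors lay below it.

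The protein-folding machinery of the ER was the most abundant group. Of 20 ER chaperones and folding enzymes, 19 exceeded the median of detected genes per kb, and the median of the list was 1420 per kb, 13.9 times that of all detected genes. The lectin chaperone Calr was highest with a value of 72878 (25305 per kb), followed by the HSP90 of the ER, Hsp90b1 (40492, 10043 per kb), and the disulfide isomerases Pdia3 (31246, 9954 per kb) and P4hb (18850, 6589 per kb). Hspa5, which encodes BiP, the chaperone that holds the sensors inactive and is the usual reporter of ER stress, had a value of 21621 and was 11.0 times Herpud1 per kb, or 6.27 times with the shortest coding transcripts. It was named after its value was seen. The lowest genes were the oxidases Ero1lb (500, 75.2 per kb) and Ero1l (958, 181 per kb).

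The degradation arm was lower. Of 16 genes of ER-associated degradation, 15 exceeded the median of detected genes, and the list had a median of 478 per kb, close to Herpud1 itself. The lectin Os9 had a value of 14311, the extracting ATPase Vcp 12118, Vimp 2695 and Ubxn4 5973, which were the 4 highest per kb. The lowest were Derl2 (1065, 132 per kb) and its paralogue Derl3 (17, 8.53 per kb). Herpud1 was 2.16 times its paralogue Herpud2 per kb of merged exons and 1.23 times with the longest coding transcripts.

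The sensors and genes related to their function were not uniformly low as a list. Of its 12 genes, the 3 sensors included, 7 exceeded the median of detected genes, with a list median of 138 per kb. Rtcb, the ligase that joins the cut ends of Xbp1 mRNA, was highest at 6501 (2486 per kb), followed by Creb3 (1786, 753 per kb), the ATF6 paralogue Atf6b (1600, 580 per kb) and Creb3l1 (929, 357 per kb). Atf6b was thus 6.52 times Atf6. The lowest were Ern2, the IRE1 of mucosal epithelia, at 10 (3.37 per kb), and Ern1. Exons of Creb3 overlap those of the abundant gene Tln1 on the opposite strand.

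For the eIF2 step itself, each of the 4 eIF2 kinases exceeded the median of detected genes, and 2 of them did so when the median was taken over genes at 100 or more. The RNA-sensing kinase Eif2ak2 had a value of 1581 (309 per kb), the heme-regulated kinase Eif2ak1 1703 (300 per kb) and the amino acid sensor Eif2ak4 940 (126 per kb). PERK, with 161 per kb, stood between Eif2ak1 and Eif2ak4, and Eif2ak2 exceeded it by 1.93-fold. With the shortest coding transcript as the length PERK came above both, because its shortest transcript is the fragment named above. The 8 genes of eIF2 and its exchange factor eIF2B had a median of 597 per kb, and all exceeded the median of detected genes. Their values were 3532 for Eif2s1, the α subunit that is phosphorylated, 6077 for Eif2s2, 2123 for Eif2s3x, 831 for Eif2b1, 1202 for Eif2b2, 673 for Eif2b3, 1238 for Eif2b4 and 2048 for Eif2b5. The Eif2b3 level, 103 per kb, was barely above the median of 102.4. When the median was taken over genes at 100 or more, 7 of the 8 exceeded it. Eif2s1 was 4.44 times Eif2ak3 per kb of merged exons, but 0.993 times with the shortest coding transcripts.

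The phosphatase that reverses the step was also well represented, with a list median of 959 per kb. The catalytic subunits Ppp1ca, Ppp1cb and Ppp1cc had values of 6142, 4647 and 3282. Ppp1r15a, the stress-inducible targeting subunit GADD34, had a value of 2944 (1002 per kb), and the constitutive subunit Ppp1r15b a value of 1281 (229 per kb). The inducible subunit was thus 4.38 times the constitutive one, and 33.1 times with the shortest coding transcripts.

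The 8 bZIP factors all exceeded the median of detected genes, with a list median of 903 per kb, and Atf4 led them. After it came Cebpb (2514, 1672 per kb) and Atf3 (3358, 1559 per kb), which is itself induced by ATF4 in stressed cells, then Nfe2l2, the antioxidant factor NRF2 (3790, 998 per kb), and Atf5 (1611, 808 per kb). Ddit3 and Xbp1 followed, and Cebpg was lowest (958, 170 per kb). Atf4 was 2.00 times Atf3 and 3.85 times Atf5, and the first ratio was 6.33 with the shortest coding transcripts. Exons of Cebpb overlap Tmem189, and those of Atf5 overlap Nup62, on the opposite strand. Genes of the other lists share exon bases with neighbours too. Among them are Eif2ak1 with Aimp2 (487 bases, opposite strand), Aldh1l2 with D10Wsu102e (1056, opposite strand) and Ppp1cb with Gm43312 (1908, same strand).

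Genes downstream of ATF4 had a lower list median than the folding genes and ran from 2237 to 3.44 per kb. Of 18 amino acid and redox targets, 9 (50%, against 33.8% of all rows with a length) exceeded the median of detected genes, and the list median of 104 per kb was 1.01 times that of all detected genes. All 18 were detected, so 50% is the share that the median of detected genes itself sets. The amino acid transporter chain Slc3a2 was highest at 7894 (2237 per kb), followed by the serine synthesis enzymes Phgdh (2679, 1078 per kb) and Psat1 (2505, 589 per kb) and the mitochondrial Shmt2 (1285, 413 per kb). Asns stood below them, and Phgdh was 3.58 times Asns. The lowest were Aldh1l2 (132, 17.6 per kb) and the cationic transporter Slc7a3 (13, 3.44 per kb). Slc7a11, the cystine carrier that pairs with Slc3a2, had a value of 664, and Slc3a2 exceeded it by 46.9-fold per kb, or by 120.3-fold with the shortest coding transcripts. Slc7a11 was named after its value was seen.

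The list of stress-induced regulators and secreted factors, which also holds constitutively used genes, had the lowest median. The list median of 59.2 per kb was 0.578 times that of all detected genes. Of 12 genes, 3 (25%) exceeded the median of detected genes, a share near the 33.8% of all rows with a length, and 6 did so when the median was taken over genes at 1 or more. The 3 were Tmed2 (6346, 2511 per kb), a cargo receptor of ER to Golgi transport that many cells use constitutively, Nupr1 (2859, 1137 per kb) and Chac2 (239, 182 per kb). The fourth was the tribbles gene Trib1 at 610 (97.6 per kb), which was 2.84 times Trib3, or 5.50 times with the shortest coding transcripts. The hormone Fgf21 was listed at 0, and Stc2 (45) and the cytokine Gdf15 (57) were the next lowest. Nupr1 and Trib3, both induced through ATF4 in stressed cells, differed by 33.1-fold per kb of merged exons and by 95.7-fold with the longest or the shortest coding transcripts. Chac2, the constitutive relative of Chac1, was 1.86 times Chac1.

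Genes linked to CHOP and cell death had a list median of 144 per kb, and 6 of 8 exceeded the median of detected genes. The count was 5 with the longest transcript as the length. It was 4 when the median was taken over genes at 100 or more. Besides Ddit3, Ppp1r15a and Ero1l, the caspase of the ER, Casp12, had a value of 792 (206 per kb). The BH3-only genes Bcl2l11, Bbc3 and Pmaip1 had values of 841, 227 and 161, and the death receptor Tnfrsf10b a value of 226 (41.5 per kb), the lowest of the list.

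**Figure D3:**
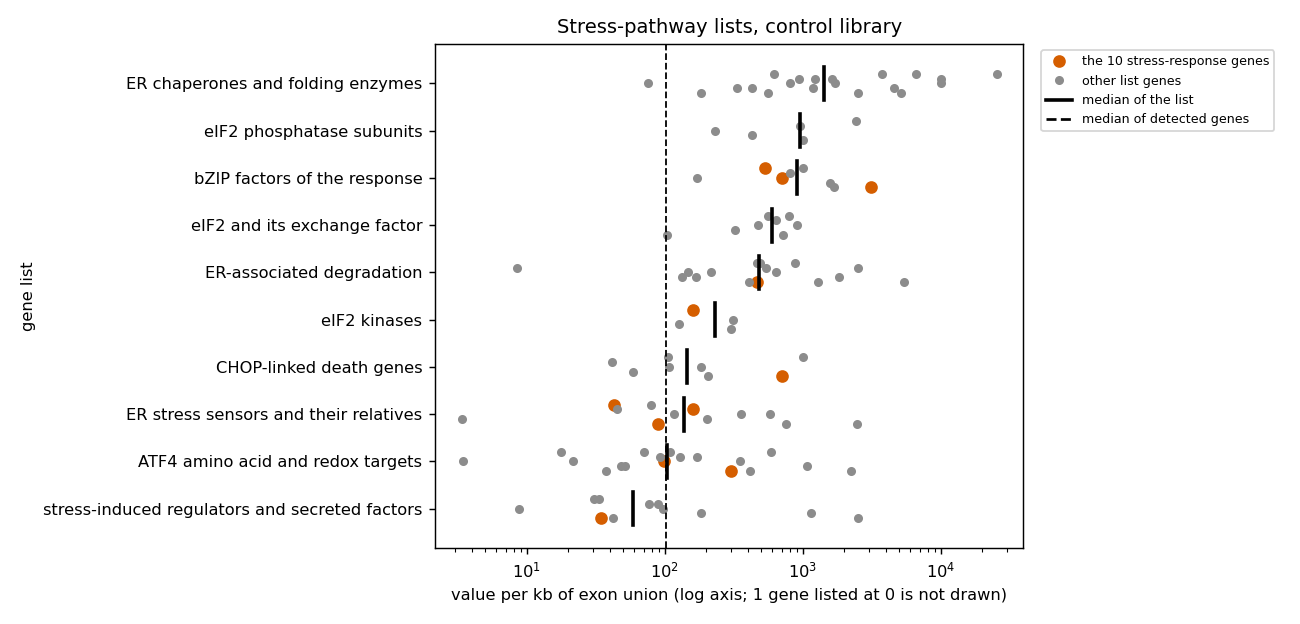
Value per kb of merged exons on a log axis for the genes of the 10 pathway lists except Fgf21, which was listed at 0 (grey points; orange, the 10 stress-response genes), with a black bar at the median of each list and a dashed line at the median of detected genes, 102.4. The folding genes of the ER have the highest list median (1420 per kb) and the stress-induced regulators and secreted factors the lowest (59.2 per kb), while Atf4 lies to the right within the bZIP factors and Trib3 to the left in the lowest list.

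Promoter windows running from 250 bases before to 50 bases after each start were available for 9 of the 10 genes, Atf6 being the exception. The longer ER stress response element (ERSE) has CCAAT and CCACG 9 bases apart, searched on either strand. Its exact letters were found in none of the 9 and in 0.119% of 32841 windows of all genes. Near matches were not counted, such as CCAAT and GCACG 9 bases apart on the opposite strand of Ddit3. Of the ER chaperones and folding enzymes, 7 of the 15 with a window had the exact element. These were Hspa5, Calr, Canx, Hsp90b1, Pdia6, Creld2 and Dnajc3, and Derl3 and Syvn1 of the degradation list had it too. Since the elements searched are known from stress-induced genes, matches among the listed genes are no independent result. Several of the genes with ERSE are known to be controlled by ATF6 and XBP1. The sites of 3 of them are printed with the gap in lower case, to show what the fixed parts look like. They start 65 bases before the start in Hspa5, 145 in Canx and 98 in Pdia6.
Hspa5: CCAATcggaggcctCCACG
Canx: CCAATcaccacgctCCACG
Pdia6: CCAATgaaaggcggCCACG

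ERSE-II was found in Herpud1, starting 52 bases before the start, and in 0.0365% of all windows. Among the other listed genes, Dnajb11 had it as well. The 8-letter CARE core was present in Herpud1, Chac1, Asns and Trib3, and in none of the 5 sensor and factor genes with a window. Bases outside the windows were not searched, so an element further out in these genes would be missed. The share of the core over all windows was 3.97%. In Trib3 it began 15 bases after the start. Of the other listed genes, Atf3, Nupr1, Fgf21, Slc7a11, Slc1a4, Pck2, Vldlr, Eif2s3x and Txndc5 held it. Both ERSE-II and this core were added to the search after the promoter letters had been seen, so the counts describe these windows only. The 9-letter form TGATGCAAT was in none of the 9 windows and in 0.192% of all windows, and among listed genes it was found in Nupr1 and Fgf21. With any base in its sixth place, TGATGNAAT, it was again found in Nupr1 and Fgf21 alone of the listed genes and in 0.965% of all windows. The XBP1 core TGACGTGG was in none of the 9 windows and in 0.676% of all windows, with matches in Txndc5 and Vcp. Genes with the same element differed in level, since Nupr1 had 1137 per kb while Fgf21 was listed at 0, and Derl3 had 8.53 per kb while Calr had 25305.

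**Figure D4:**
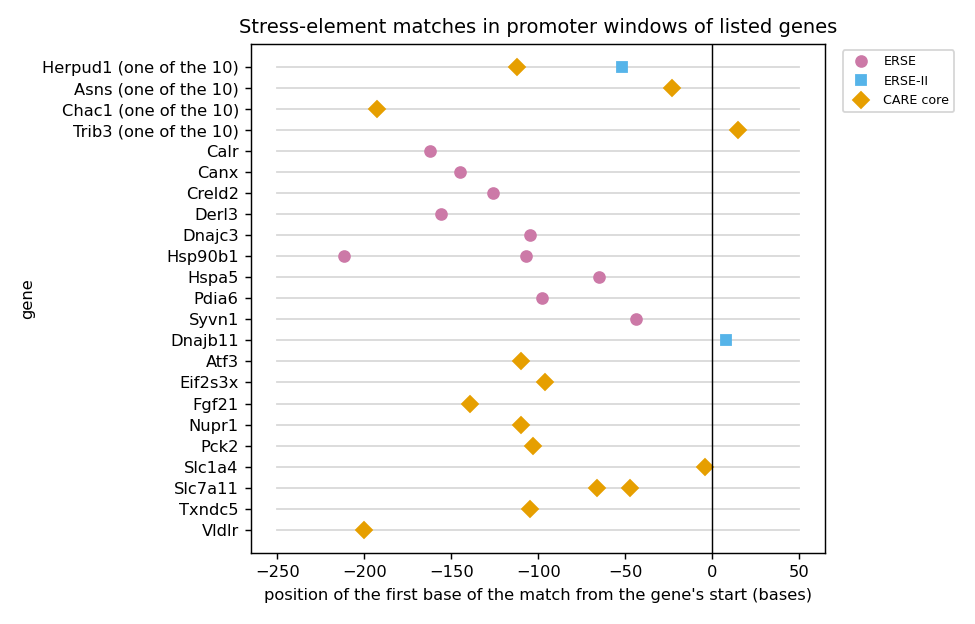
Positions of ERSE (circles), ERSE-II (squares) and CARE core (diamonds) matches in the promoter windows of listed genes, in bases from the gene's start (vertical line), with each window drawn as a grey line from 250 bases before to 50 bases after it. Herpud1, in the top row, is the gene with both a CARE core and an ERSE-II match, at 112 and 52 bases before its start.

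The culture was a mixture, and fewer cells of a type and less RNA per cell cannot be told apart in such a library, so each level above is an average over the cell types present. All 5 astrocyte markers were detected, with Gfap at 17222 and the lowest, S100b, at 604. All 5 microglia markers were detected too, from 3642 (Aif1) to 32619 (C1qa). Their median was 23713, against 2523 for the astrocyte markers, while the paper describes such cultures as mostly astrocytes with a minority of microglia. Markers differ in length and in level per cell, so these values give no share of cells. The 5 fibroblast markers ran from 188 to 16915 and the 5 oligodendrocyte markers from 48 to 16349. Of the 5 neuronal and of the 5 endothelial markers 3 were detected in each case, with highest values of 124 and 119, and Slc17a6 and Tek were listed at 0. The part of each cell type in the values of the 10 genes was not tested.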

How the data were processed

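RNA was extracted with Trizol from 1 control culture, and the library was made with a SMARTer mRNA kit. Per the study's methods, reads were trimmed at quality 20, mapped to GRCm38/mm10 with STAR and counted on exons of RefSeq Release 105 genes with HTSeq-count. The submitters' processing notes name TopHat and edgeR instead. Those methods name FPKM as a further step, while the deposited values carry the name of normalised read counts and were read as such. If they were FPKM, they would already be divided by length, and the values per kb given here would not apply. Versions, strand setting, multi-mapped reads and the factor behind the normalised counts are not given in the sources used here. The deposited values, which the authors call normalised read counts, are whole numbers. The unit is taken as a score, since the authors normalised the values before they were deposited in a way that is not stated, and no count model was used. The depth is therefore unknown, and no interval or floor is given.

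Rows with a value of 10 or more were called detected. Lengths and overlaps came from GENCODE M21 (GRCm38), matched by symbol or RefSeq synonym for 98.4% of rows. Promoters came from RefSeq. The functions for merged exon length, rank among genes and motif search were tested on simulated or made-up data. The other functions were not tested in this way. Members and lists were chosen with earlier results of these data known. All 10 members were named, every gene of lists with up to 8 genes, and otherwise the 4 highest and 2 lowest per kb and those at 0. Protein features were planned and not run. Alternatives were other minima, backgrounds, lengths and totals. Python 3.11.15, numpy 2.4.6 and matplotlib 3.10.9 were used.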

Additional observations from a re-analysis of the deposited data

How the results depend on the processing

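With 1 library there was no replicate to leave out, and each result is limited to this culture. All 10 genes were detected at minima of 1 and 3, and 9 were at 100 or more. Between 7 and 8 exceeded the median of detected genes under 3 other backgrounds, and between 5 and 8 did so per kb under 5 alternatives, 1 of which, the longest coding transcript, was chosen after seeing the data. Of 30 checks of the pathway lists, 28 stayed within 1.5 times the count. Among the 4 eIF2 kinases, 2 exceeded the median when genes at 100 or more were the background. Among the 12 genes listed as stress-induced regulators and secreted factors, 6 did so, in place of 3, when genes at 1 or more were. These shifts follow from the background, since a higher minimum raises its median. Leaving Rn45s or the 10 highest genes out of the sum raised every value per 1000000 by 2.44% or 15.5%.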
